A study of Mus musculus with 3 samples.

Results

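*Dpt* and *Lum* type fibroblasts were stromal cells chosen by measured values of 10 genes: in each, the mean of 5 genes, *Dpt*, *Ptx3*, *Lum*, *Tnfaip6* and *Col5a1*, was above 0 and above the mean of 5 others, *Lamc3*, *Mmp2*, *Col15a1*, *Tcf21* and *Sfrp2*. They numbered 2023 of the 14573 cells in the table. Before that step a cell had to pass a stromal gate: a value above 0 for the fibrillar collagen genes *Col1a2* or *Col3a1*, values of 0 for the epithelial junction genes *Cdh1* and *Cldn4*, and fewer than 3 of the 6 muscle genes *Actg2*, *Des*, *Myl9*, *Tpm2*, *Lmod1* and *Tnnt2* above 0. The gate let through 4500 cells. The 1613 gate cells with the opposite order of the means, here called the *Tcf21* and *Col15a1* type, served as the comparison, and 864 gate cells belonged to neither type because both means were 0 or equal. Since members were chosen by these values, the levels of the rule's genes are given below as a description only.

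The cells came from 3 mouse samples labelled normal, each measured once by droplet single cell RNA-seq: the male urogenital sinus at embryonic day E18.5, when it gives rise to prostatic buds, and prostate at postnatal days P14 and P35. The labels gave no genotype, strain or number of animals, and all cells sat in 1 table with barcodes ending in 1, 2 or 3. The cell number after filtering that the paper states for the embryonic sample equals that of the first set, while those stated for the postnatal samples equal neither of the remaining sets. No label ties an ending to a sample, so the 3 barcode sets are shown side by side, with no comparison between ages and no spread over sets. With 1 library per set there was no replicate to test against: every 95% interval below covers counting error only, not the spread between cells or animals.

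Fibroblasts make and remodel the collagen matrix of a tissue, and in developing organs their secreted factors also instruct the epithelium. Dermatopontin (*Dpt*) and lumican (*Lum*) bind collagen fibrils and tune their assembly, and *Col5a1* encodes the type V collagen chain that starts fibril formation. Pentraxin 3 (*Ptx3*) and TSG-6 (*Tnfaip6*) bind each other and crosslink hyaluronan. On the other side, *Tcf21* is a mesenchymal transcription factor, *Col15a1* and *Lamc3* encode matrix proteins of basement membrane zones, *Mmp2* is a gelatinase and *Sfrp2* a secreted modulator of Wnt signals. Fibroblasts marked by genes such as *Dpt*, *Cd34* and *Mfap5* are widely described in the connective tissue sheath around vessels and organs, and are often called adventitial or universal fibroblasts.

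Members made up 62 of 766 cells in set 1 (8.09%, exact 95% binomial interval 6.26 to 10.3), 678 of 5350 in set 2 (12.7%, 11.8 to 13.6) and 1283 of 8457 in set 3 (15.2%, 14.4 to 16.0). Of the cells past the gate the members were 24.7%, 44.2% and 47.3%. The *Tcf21* and *Col15a1* type had 174, 435 and 1004 cells. Depth is counted in unique molecular identifiers (UMIs), the tags by which copies of one captured mRNA are counted once. The median member of set 1 held 15927.5 of them, against 1239 in set 2 and 1321 in set 3. The comparison cells were of similar depth within each set, at 13988, 1161 and 1401, so the types were compared only within a set. Set 1 thus had few and deep members, and sets 2 and 3 many shallow ones. With the rule applied after cells of at least 900 UMIs were thinned to that number, members were 15.28%, 11.82% and 14.33% of those cells, so the order of the shares over the sets is not kept at equal depth. Asking for at least 2 of the 5 genes gave 6.658%, 5.944% and 10.16% of all cells. Sets 2 and 3 shared 13 barcode sequences, sets 1 and 2 shared 1 and sets 1 and 3 shared 0. The gene rows used here (on chromosomes 1 to 7, 10 and X, with some of 8) held 52.7%, 50.4% and 49.4% of each set's UMIs.

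The genes of the rule are described first, in CPM, a gene's summed UMIs per 1000000 UMIs of all genes in those cells. *Lum* (chromosome 10, 97565501 to 97572703, GRCm38.p6) stood at 554, 735 and 1406 CPM in the members of sets 1, 2 and 3, against 76.6, 106 and 324 in the comparison cells. A *Lum* UMI was found in 27 of 62, 342 of 678 and 920 of 1283 members. *Dpt* (chromosome 1, 164796663 to 164824274) stood at 7.30, 91.2 and 356 CPM against 3.26, 12.9 and 48.2. The 2 genes that name the type thus differed in reach: a *Dpt* UMI was found in 3, 50 and 342 members, which is 4.84%, 7.37% and 26.7%. In set 1 the name *Dpt* described almost none of the members, and the *Dpt* share of comparison cells there was 4.60% (8 of 174). As a background for free RNA, cells with UMIs of both *Cdh1* and *Cldn4* and of neither collagen held a *Dpt* UMI in 1 of 92, 0 of 677 and 0 of 1420 cells, where counts of 0 allow up to 0.443% and 0.211%, at higher median depths of 41881.5, 4263 and 5408.5 UMIs.

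*Tnfaip6* (chromosome 2, 52038113 to 52056681) stood at 777, 879 and 2301 CPM in members and was found in 51, 325 and 888 of them (82.3%, 47.9% and 69.2%). *Ptx3* (chromosome 3, 66219887 to 66225806) stood at 233, 279 and 133 CPM, in 22, 117 and 81 members (35.5%, 17.3% and 6.31%). *Col5a1* (chromosome 2, 27886381 to 28039510) stood at 337, 417 and 227 CPM, in 54, 303 and 342 members (87.1%, 44.7% and 26.7%). In the same epithelial reference cells *Lum* was found in 1.09%, 1.33% and 0.845%, *Tnfaip6* in 6.52%, 1.48% and 2.18%, *Ptx3* in 0 of 92 (up to 3.26%), 0.739% and 0.423% and *Col5a1* in 9.78%, 3.25% and 0.634%. A member had to hold at least 1 of the 5 genes, so shares above the reference are fixed by the rule. For *Dpt* in set 1 even the counting intervals overlapped, at 1.01 to 13.5% of members and 0.0275 to 5.91% of reference cells. After every cell was thinned to 900 UMIs, shares in members ran from 1.61% (*Dpt*) to 29.03% (*Col5a1*) in set 1, from 6.25% (*Dpt*) to 41.2% (*Lum*) in set 2 and from 5.08% (*Ptx3*) to 62.4% (*Lum*) in set 3. The genes of the other side were not absent from members: 56 (90.3%), 225 (33.2%) and 708 (55.2%) members held a UMI of at least 1 of them. *Sfrp2*, for one, stood at 503, 17.2 and 42.1 CPM in members, against 1024, 111 and 186. Many members thus held RNA of both sides. The smallest difference of the means, on the natural log scale of the deposited values, was 0.000713, 0.0429 and 0.0112 among members, and the nearest comparison cells lay at -0.0116, -0.0144 and -0.0164. Within 0.1 of equality stood 11, 10 and 25 members.

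**Figure D1:**
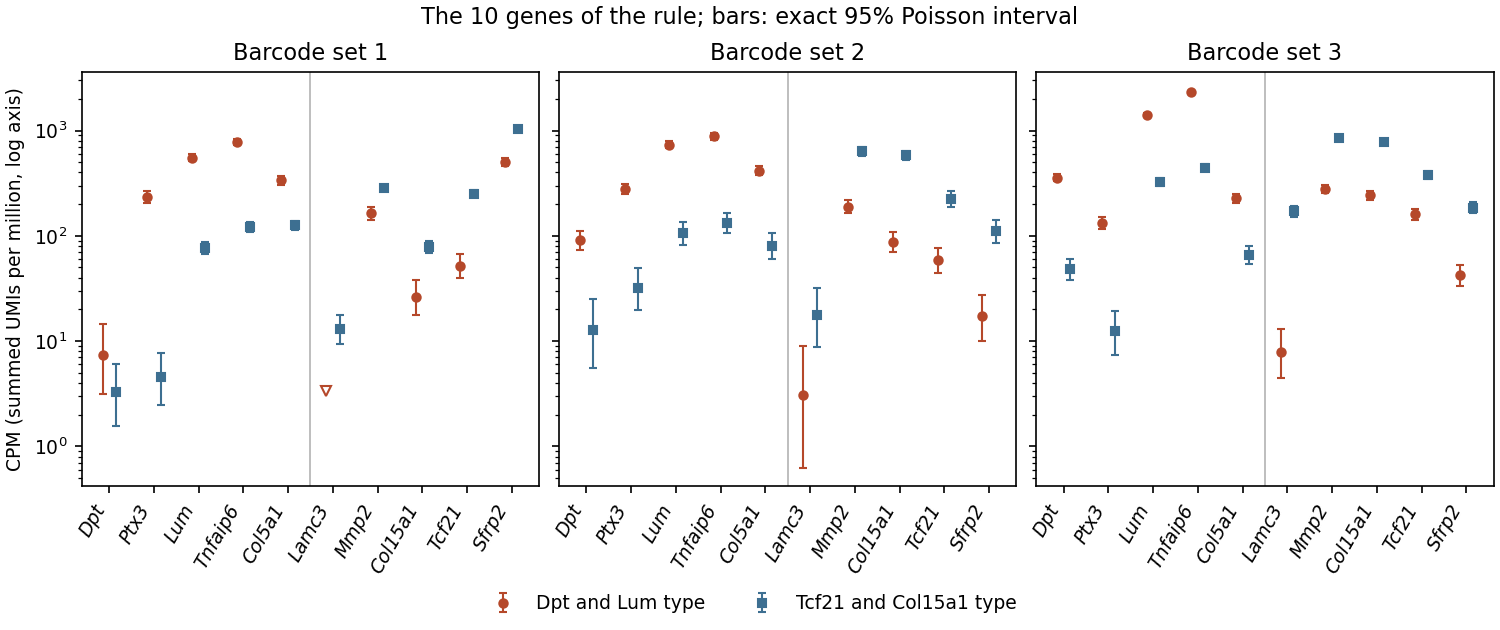
CPM (summed UMIs per 1000000, log axis) of the 10 genes of the rule in members (circles) and comparison cells (squares) of each barcode set, with exact 95% Poisson intervals; the open triangle is the upper limit for *Lamc3*, which had 0 UMIs in members of set 1. The 5 genes left of the line are higher and the 5 right of it lower in members, as the rule makes them, with *Dpt* lowest of the 5 in set 1 at 7.30 CPM.

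The number of the 5 genes found in a single member varied. In set 1, 11 members held UMIs of 1 gene, 23 of 2, 13 of 3, 14 of 4 and 1 of all 5. In set 2 these numbers were 360, 213, 76, 22 and 7, and in set 3 they were 424, 516, 259, 80 and 4. At least 2 of the 5 genes were thus found in 82.3%, 46.9% and 67.0% of members. Cells with more of the genes were mostly deeper: median UMIs in set 3 rose from 1083 with 1 gene to 1983 with 4, in set 2 from 1134.5 with 1 to 1848 with 4, and in set 1 from 13868 with 1 to 17669.5 with 4. Not every step rose, with 13392 UMIs for 2 genes in set 1 and 1550 for all 5 in set 2 (7 cells). With the rule applied after every cell was thinned to 900 UMIs, the share of members with at least 2 of the 5 genes was 51.72%, 36.82% and 57.51% in sets 1, 2 and 3. Over the pairs of genes, *Lum* was found in 80.4% of the set 3 members with a *Dpt* UMI and 68.5% of those without, and in set 2 in 70.0% and 48.9%. *Tnfaip6*, in contrast, was found in 62.8% of set 3 members with a *Lum* UMI and 85.4% of those without, and in set 2 in 39.2% and 56.8%. Since a cell needs 1 of the 5 genes to be a member, cells without *Lum* must hold another, so the lower share beside *Lum* is partly fixed by the rule. In set 1, *Ptx3* and *Lum* shared 17 cells, out of 22 and 27.

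**Figure D2:**
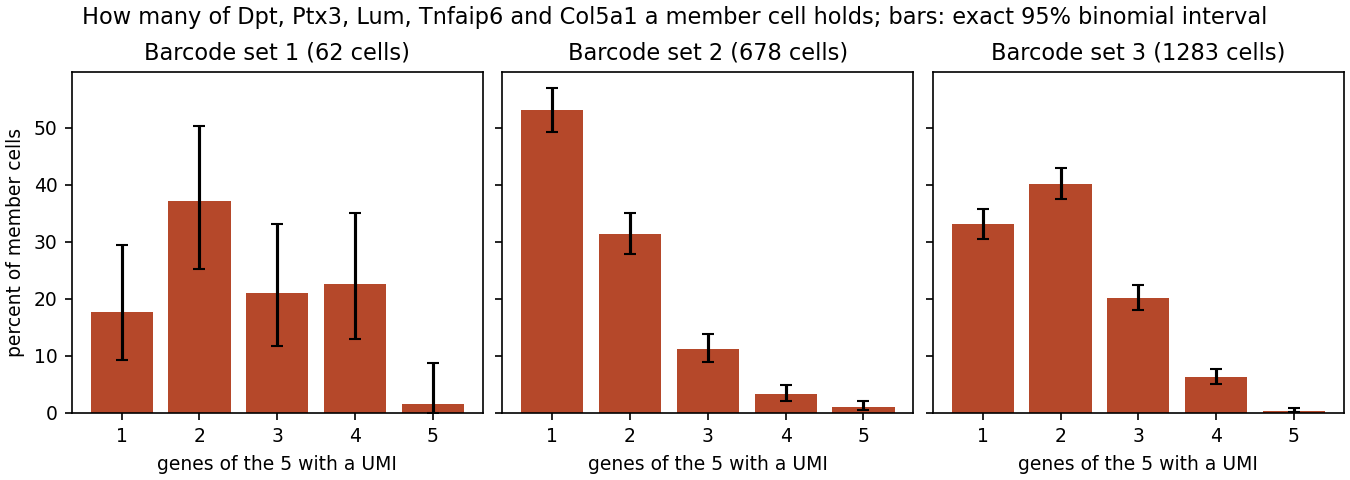
Percent of members (vertical axis) that held UMIs of 1, 2, 3, 4 or 5 of the genes *Dpt*, *Ptx3*, *Lum*, *Tnfaip6* and *Col5a1* in each barcode set, with exact 95% binomial intervals. Set 2 has the largest share of cells placed by 1 gene, 53.1% (360 of 678), and sets 1 and 3 have most cells at 2 genes.

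Genes common to fibroblasts were found in members of every set. *Col1a2* stood at 3372, 4801 and 3585 CPM and *Col3a1* at 4599, 7679 and 5389, each above its level in comparison cells, although both genes opened the gate. All 12 genes of a pan-fibroblast list that have a row were found in members of every set, and their median log2 ratio of members over comparison cells was 1.01, 0.36 and 0.26. Throughout, a gene was compared when the 2 groups together held at least 20 UMIs of it, and was called higher or lower when its CPM differed at least 2-fold and the counting interval of the log2 ratio left out 0. In set 1, 241 of 6038 genes (3.99%) were called higher and 598 (9.90%) lower. In set 2, 90 of 3906 (2.30%) were called higher and 70 (1.79%) lower, and in set 3, 163 of 4943 (3.30%) and 170 (3.44%). The median log2 ratio over all compared genes was -0.23, 0.0035 and -0.017. Lower calls exceeded higher ones in set 1 also with the mean of CPM per cell (639 against 242) and at a minimum of 50 UMIs (450 against 165). With cells thinned to 900 UMIs 22 genes were called lower and 55 higher there, and with the rule applied after thinning 59 and 73. The excess of lower calls in set 1 was thus not kept after thinning, and the reason was not tested. Against these shares, 6 of the 12 pan-fibroblast genes were called higher in set 1, 1 in set 2 and 3 in set 3, while 1 (*Pdgfra*, the receptor that marks most mesenchymal fibroblasts) was called lower in set 1, at 39.2 against 98.1 CPM. The comparison cells are gate cells too, so these ratios do not check whether members are fibroblasts. *Dcn*, found in 584 of 678 and 1189 of 1283 members of sets 2 and 3, was found in only 44 of the 62 members of set 1 despite their depth.

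Few genes were called in the same direction everywhere. Of 3769 genes compared in all 3 sets, 12 (0.318%) were called higher in each and 16 (0.425%) lower in each. The 12 were the matrix genes *Dcn*, *Epyc*, *Postn*, *Mfap5*, *Thbs3* and *Spon2*, the growth factor *Igf2*, the enzyme *Ugdh*, the complement regulator *Cd55*, and *Nrk*, *Lgi2* and *Fabp7*. The 16 fell into 2 groups. Endothelial genes made up 1 of them, with *Cdh5*, *Flt1*, *Plvap*, *Emcn*, *Cd93*, *S1pr1*, *Myct1* and *Gimap6*, and the other held *Bmp2*, *Wif1*, *Prom1*, *Cth*, *Lmcd1*, *Prdm1*, *Npnt* and *Srgn*. The last 2, and the grouping, were named after their values were seen. None of the endothelial calls was kept in any set once cells with another class's markers were left out, as given below.

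These calls were repeated with some cells left out. Cells with UMIs of at least 2 markers of epithelium, endothelium, leukocytes, glia or pericytes that took at least 0.1% of the cell's UMIs were left out, a choice made after the data were seen. That removed 9, 69 and 87 members and 16, 31 and 54 comparison cells. At any level, 30 of 62, 77 of 678 and 94 of 1283 members held at least 2 markers of another class. Among comparison cells these were 54 of 174, 34 of 435 and 58 of 1004. The 0.1% minimum thus kept most such cells of set 1, where cells were deep, and few of sets 2 and 3. With all of them left out, the *Dcn* ratio of set 1 was 0.55. Of the 12 genes, 8 (*Postn*, *Epyc*, *Mfap5*, *Nrk*, *Igf2*, *Thbs3*, *Dcn* and *Ugdh*) were still called higher in each set. Of the 16, 5 (*Bmp2*, *Wif1*, *Prom1*, *Cth* and *Lmcd1*) were still called lower in each. A lost call need not mean a changed ratio. *Lgi2* went from 1.32, 1.24 and 1.23 to 1.28, 1.08 and 1.24, and lost its call in set 2, where the interval then held 0. *Npnt* went from -1.08, -1.76 and -1.25 to -0.87, -1.82 and -1.25, and lost its call in set 1. Over all alternatives, the *Lgi2* ratio nearest 0 was 0.52, 0.85 and 0.80 in sets 1, 2 and 3, and that of *Npnt* -0.35 in set 1. Over the 5 to 9 alternatives that gave a value for each of these 13 genes in a set, *Postn*, *Epyc*, *Mfap5*, *Igf2* and *Prom1* stayed past 2-fold in every set. The other 8 fell under it in at least 1. The ratio nearest 0 was 0.44 in set 1 and 0.38 in set 2 for *Nrk*, 0.31 in set 1 and 0.99 in set 3 for *Dcn*, 0.42 in set 1 and 0.90 in set 3 for *Thbs3*, and 0.73 in set 1 and 0.86 in set 2 for *Ugdh*. Among the lower genes it was -0.85 in set 1 and -0.86 in set 2 for *Bmp2*, -0.87 in set 2 for *Wif1*, -0.93 in set 2 and -0.88 in set 3 for *Cth*, and -0.87 in set 1 and -0.56 in set 2 for *Lmcd1*. These 8 calls thus depend on how cells were chosen, thinned, averaged or compared. Some ratios with marker-bearing cells left out are quoted beside the genes below.

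**Figure D3:**
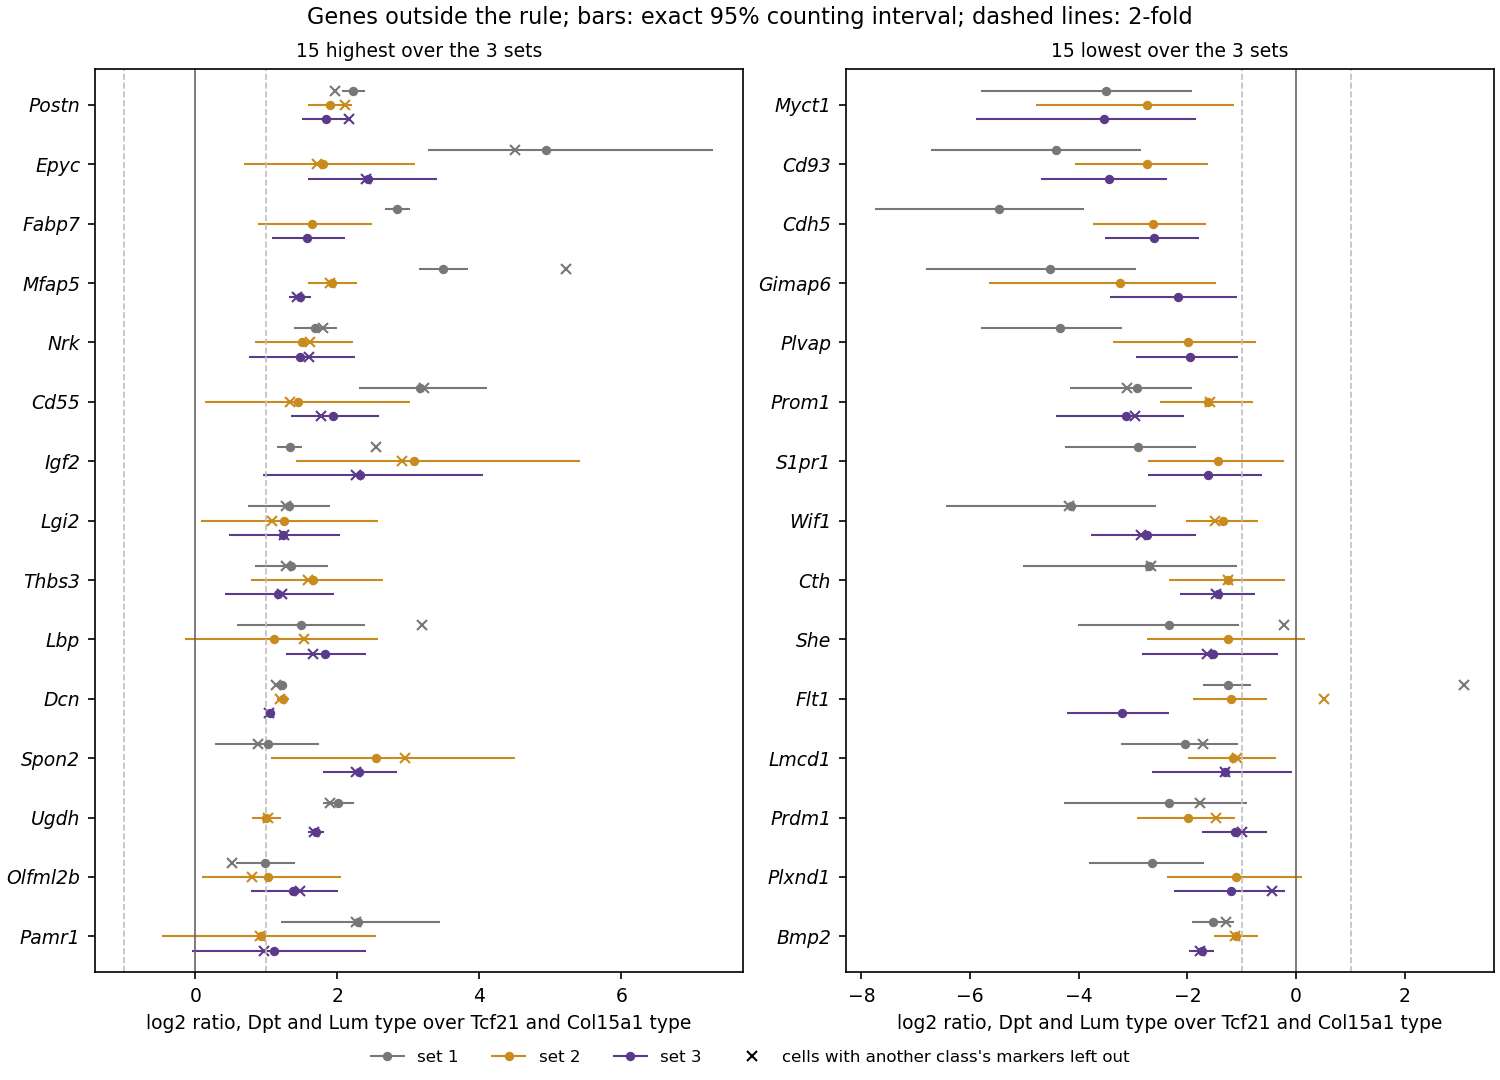
Log2 ratio of CPM, *Dpt* and *Lum* type over *Tcf21* and *Col15a1* type, for the 15 genes highest and the 15 lowest by the ratio nearest 0 over the 3 sets, rule genes left out; circles and bars are the ratios and exact 95% counting intervals of sets 1, 2 and 3, and crosses the ratio with cells that held another class's markers left out. Sums under 3 UMIs were set to 3, and *Postn*, ranked first of the higher genes, runs from 1.84 to 2.23, while the endothelial genes among the lower ones have few or no crosses, since too few UMIs were left.

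Among the small leucine-rich proteoglycans, a family that coats collagen fibrils and includes *Lum*, 3 of 4 compared genes were called higher in set 1, 3 of 4 in set 2 and 2 of 6 in set 3, and 0 lower. *Dcn*, the fibril-binding proteoglycan decorin (chromosome 10, 97479500 to 97518163), stood at 3574 against 1539.9 CPM in set 1, 5902 against 2509.6 in set 2 and 8942 against 4301 in set 3, each time members first. On the log2 scale *Dcn* was higher by 1.21 (1.15 to 1.28), 1.23 (1.15 to 1.32) and 1.06 (1.01 to 1.10). *Epyc*, the proteoglycan epiphycan (chromosome 10, 97644068 to 97681908), stood at 30.1 against 0.652 CPM (33 against 2 UMIs), 44.6 against 12.9 and 45.8 against 8.47. *Epyc* was rare, in 6, 30 and 40 members, with ratios of 5.53 (3.56 to 8.63), 1.80 (0.69 to 3.09) and 2.44 (1.59 to 3.40), and 1 cell gave 42.4% of its UMIs in set 1. *Dcn*, *Lum*, *Kera* and *Epyc* lie next to each other in this order on chromosome 10, and *Kera*, the keratan sulphate proteoglycan keratocan (97606962 to 97613688), had 0 CPM in set 1 members and 15.2 and 2.63 in the others, against 1.63, 0 and 0, too few UMIs to compare. *Bgn*, the related biglycan, did not share the pattern, at 647 against 466, 547 against 696 and 900.4 against 1339.6 CPM with ratios of 0.47, -0.35 and -0.57. *Fmod* (fibromodulin) was called higher in set 1 (31.9 against 5.22 CPM) and *Prelp* in set 2 (23.3 against 6.43 CPM).

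Of the elastic fibre and adhesive matrix list, 8 of 18 genes were called higher in set 1, 6 of 18 in set 2 and 4 of 18 in set 3, with 0, 0 and 1 lower. *Postn* (periostin, a cell-adhesive protein of collagen-rich tissue; chromosome 3, 54359267 to 54391041) stood at 741 against 158, 615 against 165 and 210.1 against 58.6 CPM in the 3 sets. Its ratios were 2.23 (2.06 to 2.39), 1.89 (1.59 to 2.21) and 1.84 (1.51 to 2.19), and it was found in 41 of 62, 240 of 678 and 191 of 1283 members. *Mfap5* (a microfibril glycoprotein; chromosome 6, 122513584 to 122529290) stood at 318 against 28.4, 511 against 135 and 757 against 273 CPM. The *Mfap5* ratios were 3.49 (3.15 to 3.84), 1.92 (1.59 to 2.27) and 1.47 (1.31 to 1.63). In set 1 they rested on 20 members, 1 of which gave 28.1% of the UMIs, and the ratio was 5.22 without marker-bearing cells. *Thbs3*, a thrombospondin that binds matrix and calcium, stood at 58.4 against 22.8, 65.9 against 20.9 and 30.5 against 13.7 CPM. *Spon2*, a secreted matrix protein that also serves in innate immunity, stood at 26.4 against 13.04, 37.5 against 6.43 and 119 against 24.1 CPM. With ratios of 1.35, 1.66 and 1.16 for *Thbs3* and 1.02, 2.55 and 2.30 for *Spon2*, both kept their direction in every set, but *Spon2* fell under the 2-fold line in set 1 once the marker-bearing cells were left out (0.88).

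Other members of that list were set dependent. Fibronectin (*Fn1*) was called higher in sets 1 and 2 (429.5 against 201 and 332 against 162 CPM) and stood at 125 against 106 in set 3, a ratio of 0.24. Without marker-bearing cells the set 1 ratio went from 1.09 to 2.06. *Thbs1*, an adhesive glycoprotein and activator of latent TGF-beta, was called higher in set 1 (554 against 107 CPM, 2.37 (2.17 to 2.57)) and had ratios of 0.29 and 0.77 in the others. Fibrillin 1 (*Fbn1*), the backbone of microfibrils, followed the same course, with 1.30, 0.25 and 0.43. Elastin (*Eln*) showed ratios of -0.22, 0.019 and 0.93, and 2.49 in set 1 without the marker-bearing cells. *Fbln2*, a fibulin of elastic fibres, was called higher in set 2 (65.9 against 28.9 CPM), but its ratio fell to 0.91 without marker-bearing cells, while that of set 1 went from 0.27 to 1.16. *Ecm1*, a secreted glycoprotein, was called higher in set 1 (41.9 against 19.2 CPM) and lower in set 3 (131 against 285 CPM), with 2.13 in set 1 without marker-bearing cells.

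The collagen list gave few calls. Of 22, 19 and 19 compared genes, 3, 0 and 1 were called higher and 2, 2 and 2 lower, with medians of 0.51, 0.11 and -0.17. *Col6a3*, a chain of the beaded microfibril collagen VI, was called higher in sets 1 and 3 (249 against 113 and 445 against 210.4 CPM) and stood at 611 against 382 in set 2. Without marker-bearing cells the set 1 ratio was 0.99, just under 2-fold. *Col5a2*, the partner chain of the rule gene *Col5a1*, had ratios of 0.69, 0.82 and 0.58, above 0 but under 2-fold in each set. In set 1 the lower share, 2 of 22, was near the 9.90% of all genes. *Col13a1*, a transmembrane collagen, stood at 63.8 against 43.4 CPM in set 1 and at 39.5 against 145 and 35.8 against 118 in sets 2 and 3, with ratios of 0.56 (0.12 to 0.99), -1.87 (-2.45 to -1.31) and -1.72 (-2.14 to -1.31). *Col4a5*, a chain of basement membrane collagen IV, stood at 21.9 against 59.0, 100.4 against 269.9 and 243 against 390.1 CPM, called lower in sets 1 and 2. *Col4a6*, its neighbour chain, was called lower in set 1 (9.12 against 25.4 CPM), and *Col18a1*, the precursor of endostatin, in set 3 (54.2 against 168 CPM), whereas the collagen IV chains *Col4a1* and *Col4a2* were not called in any set. Without marker-bearing cells the *Col18a1* ratio of set 1 went from -0.43 to -1.64. *Col8a2*, a short-chain collagen, and *Pcolce*, which helps to cleave procollagen, were called higher in set 1, at 37.4 against 9.45 and 242 against 109.9 CPM, the latter with 0.95 without marker-bearing cells.

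**Figure D4:**
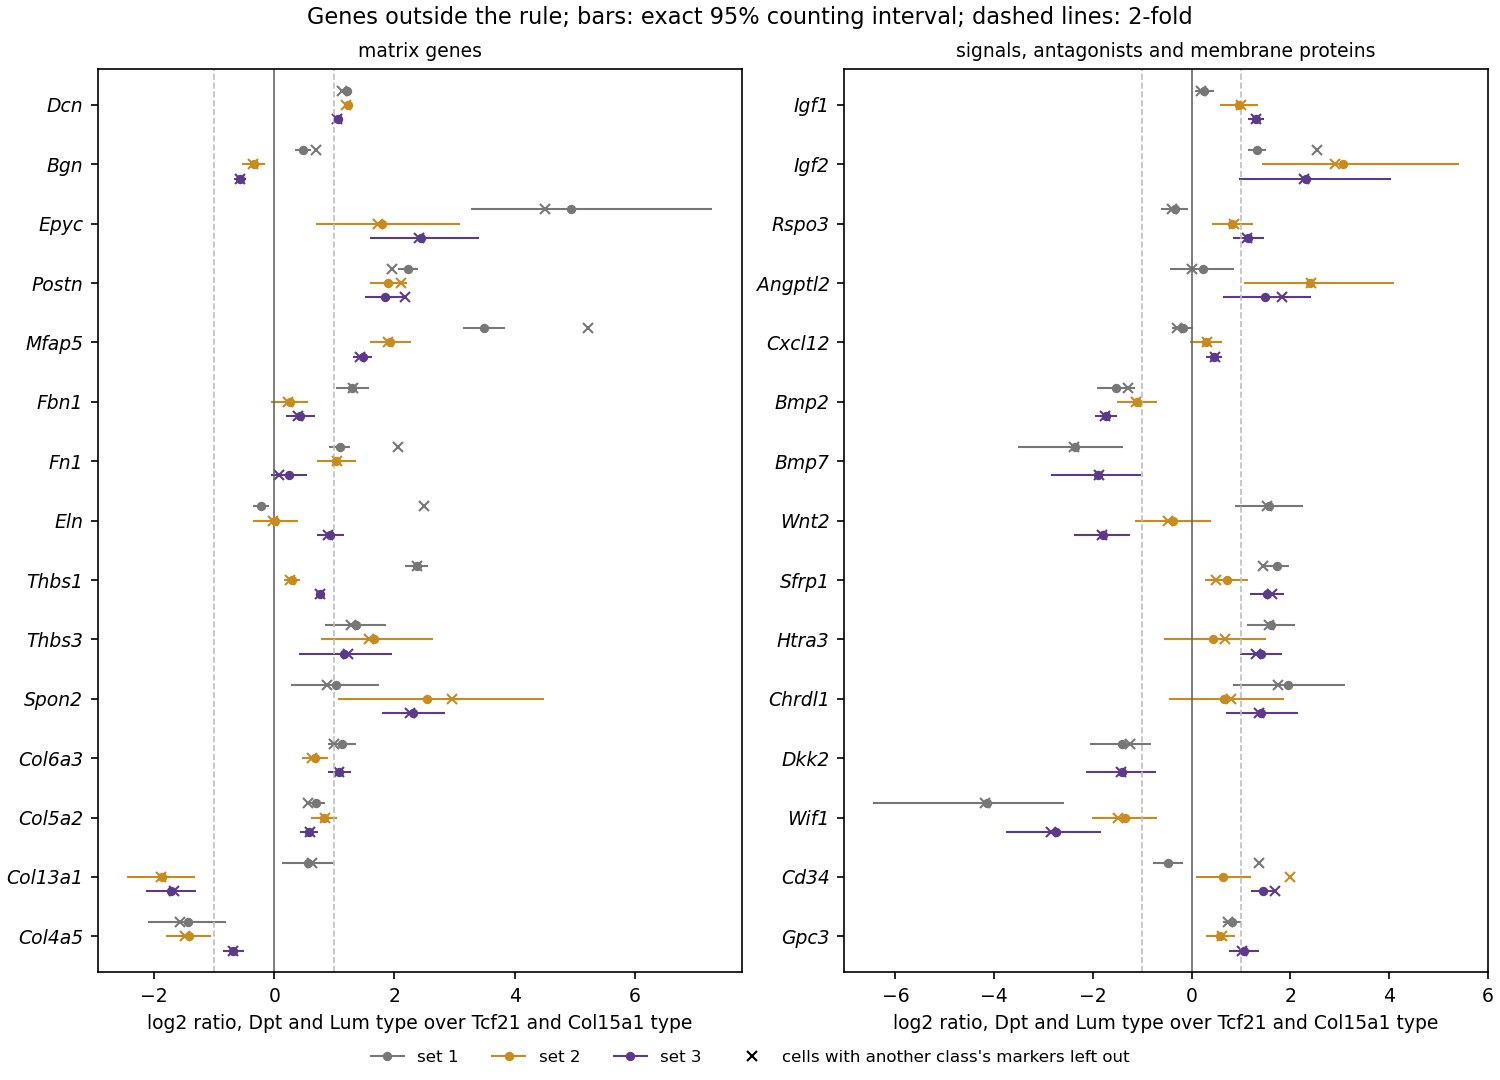
Log2 ratio of CPM, *Dpt* and *Lum* type over *Tcf21* and *Col15a1* type, for 15 matrix genes and 15 genes of secreted signals, antagonists and membrane proteins, chosen after their values were seen; circles and bars are the ratios and exact 95% counting intervals of each barcode set, and crosses the ratio with cells that held another class's markers left out. Matrix genes from *Dcn* to *Mfap5* lie right of 0 apart from *Bgn* (-0.35 in set 2), and *Bmp2* and *Wif1* lie left of 0 in every set.

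The adventitial or universal fibroblast list has 30 genes, of which 15 have a row, and *Mfap5*, *Fbn1* and *Cd55* are counted in other lists too. Of 13 compared genes, 4, 4 and 7 were called higher and 1, 0 and 0 lower, with medians of 0.28, 0.61 and 1.04. Beside *Mfap5*, 2 of its genes were called higher in every set. *Ugdh*, the enzyme that makes the sugar precursor of hyaluronan and proteoglycans, stood at 397 against 98.1, 801 against 400.1 and 1741 against 538 CPM, with ratios of 2.02 (1.80 to 2.23), 1 (0.79 to 1.21) and 1.69 (1.58 to 1.81). *Cd55*, which restrains complement at the cell surface, stood at 43.8 against 4.89, 26.4 against 9.64 and 70.03 against 18.2 CPM in 13, 22 and 96 members. With ratios of 3.16, 1.45 and 1.94 it kept its direction, although in set 2 the ratio of 1.33 without marker-bearing cells had an interval that held 0. *Cd34*, a surface sialomucin shared by these fibroblasts and by endothelium, stood at 106 against 147, 99.4 against 64.3 and 312 against 115 CPM. Its ratios of -0.47, 0.63 and 1.45 became 1.37, 2 and 1.68 without marker-bearing cells, so in sets 1 and 2 the call appeared only then. *Gsn*, an actin-severing protein, had ratios of 0.91, 0.78 and 0.96, just under 2-fold in set 3, where it stood at 5658 against 2909 CPM. *Ackr3*, a scavenger receptor for CXCL12, *Creb5*, a transcription factor, and *Uchl1*, a ubiquitin hydrolase, were called higher in set 3 (72.7 against 16.3, 80.6 against 37.8 and 32.1 against 15.6 CPM), *Uchl1* with 0.021 without marker-bearing cells. In set 1 the *Creb5* ratio went from -0.039 to -0.78 without them. *Anxa3*, an annexin, went from lower in set 1 (29.2 against 62.9 CPM) to higher in set 2 (36.5 against 17.7 CPM). Without marker-bearing cells its set 1 ratio turned to 3.28 and its set 2 ratio was 1.65.

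In the hyaluronan and inflammatory matrix list, 5 of 14, 1 of 12 and 1 of 14 genes were called higher and 1, 0 and 1 lower. Of all compared genes, 3.99%, 2.30% and 3.30% were called higher and 9.90%, 1.79% and 3.44% lower. The calls of the list differed by set. In set 1 they were the hyaluronan receptor *Cd44* (82.99 against 37.5 CPM), *Itih5*, which binds hyaluronan chains (93.02 against 24.4 CPM), the prostaglandin enzymes *Ptges* (101 against 41.7 CPM) and *Ptgs2* (51.98 against 22.8 CPM), and the protein C receptor *Procr* (31.9 against 14.99 CPM), with *Ptgs1* lower. Without marker-bearing cells *Procr* had 2.58 there, and *Ptgs1* went from -1.55 to -0.72, under 2-fold. In sets 2 and 3 it was thrombomodulin (*Thbd*), the anticoagulant partner of *Procr*, at 51.7 against 12.9 and 104 against 23.4 CPM and ratios of 2.01 (0.92 to 3.30) and 2.15 (1.63 to 2.70). *Cemip*, which degrades hyaluronan, was called lower in set 3 (5.79 against 22.8 CPM).

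Of 40, 29 and 36 compared secreted signals, 8, 3 and 7 were called higher and 6, 1 and 6 lower, and *Igf2* was the one called higher in every set. The shares over all genes were 3.99%, 2.30% and 3.30% higher and 9.90%, 1.79% and 3.44% lower. *Igf2*, a growth factor of fetal life (chromosome 7, 142650768 to 142666816), stood at 461 against 184 CPM in set 1, 40.6 against 4.82 in set 2 and 16.3 against 3.26 in set 3. It was found in 48 of 62, 34 of 678 and 30 of 1283 members, and its ratios were 1.33 (1.15 to 1.50), 3.07 (1.42 to 5.41) (40 against 3 UMIs) and 2.33 (0.95 to 4.05), with 2.55 in set 1 without marker-bearing cells. *H19*, the imprinted RNA next to *Igf2* (142575530 to 142578146), stood at 777 against 433 and 84.2 against 4.82 CPM in sets 1 and 2, with ratios of 0.84 (0.72 to 0.97) and 4.13 (2.53 to 6.43), and was too rare to compare in set 3. The *H19* ratio of set 1 passed 2-fold without marker-bearing cells, at 1.47. *Igf1*, the growth factor that prostate stroma supplies to epithelium, was called higher in set 3 only. It stood at 283 against 237, 233 against 121 and 639 against 259 CPM, with ratios of 0.26 (0.06 to 0.45), 0.95 (0.57 to 1.35) and 1.30 (1.14 to 1.47), above 0 in each. A list of genes of fibroblast state, made up mostly of imprinted and fetal genes and holding *Igf2* and *H19*, had 3 of 10, 2 of 9 and 3 of 7 genes called higher and 0 lower, with medians of 0.57, 0.56 and 0.79. *Peg3* and *Plagl1*, imprinted genes for zinc finger proteins, were called higher in sets 1 and 3, at 271 against 101 and 202 against 99.1 CPM in set 1 and 113 against 24.7 and 195 against 85.96 in set 3.

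Bone morphogenetic protein 2 (*Bmp2*) was the signal called lower in every set. It stood at 59.3 against 170.5, 94.3 against 202 and 118 against 393 CPM, with ratios of -1.52 (-1.92 to -1.15), -1.10 (-1.50 to -0.70) and -1.74 (-1.97 to -1.51). *Bmp7* was called lower in sets 1 and 3 (8.21 against 42.1 and 7.90 against 29.3 CPM). *Id1*, a target gene of BMP signals, was called lower in the same sets (214 against 638 and 303 against 713 CPM) and had a ratio of -0.30 in set 2. Signals of the Wnt pathway went both ways. *Rspo3*, which enhances Wnt signalling, stood at 136 against 172, 189.6 against 108 and 165 against 74.2 CPM and was called higher in set 3 (1.15 (0.84 to 1.47)). *Wnt2* was called higher in set 1 (35.6 against 12.1 CPM) and lower in set 3 (19.5 against 67.7 CPM), *Wnt11* higher in set 1 (56.5 against 20.9 CPM), and *Wnt16* had 0 UMIs in members of set 1 against 60, at least 7.15-fold lower. *Angptl2*, an angiopoietin-like protein, was called higher in sets 2 and 3 (42.6 against 8.03 and 27.4 against 9.77 CPM), and *Angptl1* in sets 1 and 3 (20.1 against 5.54 and 24.2 against 2.60 CPM). *Gas6* and *Nrg1*, ligands of the TAM and ErbB receptors, were called lower in set 3 (139.5 against 292 and 19.5 against 42.3 CPM).

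Secreted antagonists and binding proteins were called higher in 3 of 14, 0 of 11 and 3 of 12 cases and lower in 5, 1 and 3. All compared genes gave 3.99%, 2.30% and 3.30% higher and 9.90%, 1.79% and 3.44% lower. *Wif1*, which binds Wnt ligands, had 0 UMIs in members of set 1 against 149 in comparison cells, at least 17.8-fold lower. In sets 2 and 3 it stood at 33.5 against 85.2 and 6.32 against 42.3 CPM, with ratios of -1.35 (-2.02 to -0.69) and -2.74 (-3.77 to -1.84). *Dkk2*, another Wnt antagonist, was called lower in sets 1 and 3 (23.7 against 62.9 and 13.7 against 36.5 CPM). Other antagonists went the other way. *Sfrp1*, a relative of the rule gene *Sfrp2*, stood at 263 against 79.5, 165 against 101 and 179.6 against 62.5 CPM, with ratios of 1.72 (1.47 to 1.98), 0.71 (0.28 to 1.15) and 1.52 (1.19 to 1.86). *Chrdl1*, a BMP antagonist, and *Htra3*, a secreted serine protease, were called higher in the same 2 sets as *Sfrp1*, sets 1 and 3. *Chrdl1* stood at 16.4 against 4.24 and 37.9 against 14.3 CPM and *Htra3* at 68.4 against 22.5 and 108 against 41.03. Lower in set 1 were also *Frzb*, *Hhip* and *Htra1*, and in set 3 *Igfbp2*, but *Htra1* turned to 1.62 in set 1 without marker-bearing cells.

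Membrane receptors gave no common direction, with 4 of 37, 1 of 31 and 2 of 35 genes called higher and 4, 3 and 3 lower and medians of 0.0074, -0.0012 and 0.11. Over all compared genes the shares were 3.99%, 2.30% and 3.30% higher and 9.90%, 1.79% and 3.44% lower. In set 1 the lower share of receptors, 4 of 37, was near that of all genes. *Gpc3*, a glypican that modulates growth factor signals, stood at 380.3 against 216, 322 against 215 and 175 against 84.01 CPM and was called higher in set 3. *Lgr5*, a receptor for R-spondins, was called higher in set 1 (25.5 against 12.4 CPM) and lower in set 2 (11.2 against 32.1 CPM), with 0.94 and -1.82 without marker-bearing cells. *Prom1*, a membrane glycoprotein outside the lists, was called lower in every set, at 7.30 against 55.7, 19.3 against 59.4 and 4.21 against 37.1 CPM and ratios of -2.93 (-4.17 to -1.92), -1.63 (-2.51 to -0.79) and -3.14 (-4.42 to -2.06). *Nrk*, a kinase, was called higher in every set, at 179.7 against 55.7, 104 against 36.95 and 37.9 against 13.7 CPM and ratios of 1.69, 1.50 and 1.47. *Cth*, which makes cysteine, stood at 2.74 against 17.9, 14.2 against 33.7 and 14.7 against 39.7 CPM, and *Lmcd1*, a LIM domain cofactor, at 8.21 against 33.9, 24.3 against 54.6 and 4.74 against 11.7.

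Transcription factors were called higher in 3 of 49, 0 of 33 and 7 of 45 cases and lower in 11, 2 and 3. Shares over all genes were 3.99%, 2.30% and 3.30% higher and 9.90%, 1.79% and 3.44% lower. Posterior Hox genes, which set position along the body axis, made up 7 of the 11 lower calls of set 1. *Hoxa10* stood at 21.9 against 92.9 CPM there, *Hoxa13* at 25.5 against 94.2 and *Hoxd13* at 57.5 against 122. In set 3 the same genes had ratios of -0.52, -0.61 and -0.79, none called. In set 2 *Hoxa10* and *Hoxd13* had -0.59 and -0.62, not called, and *Hoxa13* had too few UMIs to compare. *Hoxd11* was called lower in set 2, at 12.2 against 27.3 CPM, a ratio of -1.17, and had -0.60 and -0.057 in sets 1 and 3, not called. *Lef1*, a Wnt effector, was called lower in sets 1 and 3 (6.38 against 38.5 and 2.63 against 12.4 CPM), and *Snai1*, a repressor of epithelial genes, in sets 1 and 2 (28.3 against 72.04 and 18.2 against 38.6 CPM). *Prrx1*, a factor of fibroblast identity, was called higher in set 1 (146 against 61.6 CPM). The higher calls of set 3 were *Creb5*, *Peg3*, *Plagl1*, *Foxp2*, *Ebf3*, *Zfhx4* and *Meis3*, of which *Foxp2* stood at 24.7 against 7.81 CPM and *Ebf3* at 21.6 against 8.47, and *Meis3* had 0.98, under 2-fold, without marker-bearing cells.

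Chemokines, cytokines and their receptors were called higher in 5 of 13, 1 of 17 and 2 of 16 cases and lower in 2, 0 and 2. For all genes the shares were 3.99%, 2.30% and 3.30% higher and 9.90%, 1.79% and 3.44% lower. The neutrophil attractant *Cxcl1* was called higher in set 1 (319 against 48.2 CPM), where 1 member gave 56.3% of its UMIs and the ratio was 3.69 without marker-bearing cells, and had ratios of 0.38 and 0.31 elsewhere. *Cxcl13*, which draws B cells, was called higher in set 3, at 91.6 against 3.91 CPM in 52 members, a ratio of 4.55 (3.40 to 6.02). Interleukin 6 (*Il6*) was called higher in set 2 (46.6 against 22.5 CPM). *Cxcl12*, the ligand of *Ackr3*, stood at 219.8 against 248, 240.3 against 196 and 467 against 341 CPM, within 2-fold in each set. Complement genes were called higher in 2 of 4, 1 of 5 and 1 of 6 cases and lower in 0, through *Cd55* in each set and the C1 inhibitor *Serping1* in set 1 (93.9 against 33.2 CPM).

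The remaining lists gave few calls, and stand beside 3.99%, 2.30% and 3.30% of all genes higher and 9.90%, 1.79% and 3.44% lower. For retinoid and lipid handling 4 of 22, 2 of 19 and 1 of 23 genes were called higher and 1, 1 and 2 lower, with lipoprotein lipase (*Lpl*) higher in sets 2 and 3 (66.9 against 17.7 and 136 against 64.5 CPM). Early response and stress genes, which rise during dissociation, were called higher in 3, 1 and 1 and lower in 2, 0 and 1 of 31, with medians of -0.12, -0.19 and 0.013. Mitosis genes were called higher in 0 of 15, 1 of 8 (*Cdc20*) and 0 of 10 cases and lower in 0, and the *Cdc20* call was lost without marker-bearing cells (1.10, with an interval that held 0). Of 46, 44 and 46 ribosomal protein genes, 0 were called in either direction, with medians of 0.073, -0.056 and -0.032. The reporter row *EGFP* held 932 UMIs in 29 of the 62 members of set 1, at 849.9 against 1013 CPM, a ratio of -0.25 (-0.36 to -0.15), and 0 UMIs in either type in sets 2 and 3.

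Markers of other cell classes moved with the types and in different ways by set. The 10 endothelial markers summed to 97.6 CPM in members and 905 in comparison cells in set 1, 128 and 405 in set 2, and 151 and 318 in set 3, and 9 of 10, 7 of 7 and 5 of 10 compared markers were called lower. *Cdh5*, the cadherin that defines endothelium, was at 0 UMIs in members of set 1 against 370, at least 44.1-fold lower, and stood at 11.2 against 69.1 and 7.90 against 48.2 CPM in the others. Without the marker-bearing cells, *Flt1* turned to 3.09 in set 1 and *Emcn* to 1.29, and *Cdh5*, *Plvap*, *Cd93*, *S1pr1*, *Myct1* and *Gimap6* were too rare to compare in any set. *Flt1*, *Emcn*, *Cdh5* and *Plvap* are themselves markers by which cells were left out, so the loss of their calls is fixed by that step and shows nothing of where their RNA came from. *Cd93*, *S1pr1*, *Myct1* and *Gimap6* were not among those markers. For endothelial markers 7 of 174, 8 of 435 and 18 of 1004 comparison cells were left out, and 0, 5 and 7 members. *Tek*, an angiopoietin receptor, was called higher in set 3 (14.2 against 4.56 CPM).

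Glial markers leaned to the members. The 7 with a row summed to 1352 against 206 CPM in set 1, 345 against 194 in set 2 and 263 against 80.1 in set 3, and 6 of 7, 1 of 3 and 3 of 5 compared markers were called higher. *Fabp7*, a glial fatty acid binding protein, was among the 12 genes called higher in every set, at 869.98 against 121, 85.2 against 27.3 and 83.7 against 28 CPM in 9, 27 and 41 members. Against all other gate cells its ratios were 2.18, 0.020 and 0.44, so the call was lost in sets 2 and 3. It could not be compared once the marker-bearing cells were left out, as it is 1 of the glial markers used for that, and 6, 48 and 50 members were among those cells for glial markers. The part of glial RNA in the calls of other genes was not tested beyond leaving these cells out.

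Leukocyte markers changed sides. Without *Lsp1*, which fibroblasts express too, 13 markers summed to 4.56 against 303 CPM in set 1, 7.10 against 8.03 in set 2 and 196 against 68.4 in set 3. Of these, 11 were at 0 in members of set 1, *Ptprc* among them, and 9 of 9 compared were called lower there, 6 of 8 higher in set 3, and none could be compared in set 2. *C1qa*, a complement gene of macrophages, was at 0 against 157 UMIs in set 1 and 63 against 2 in set 3, in 12 members. With *Lsp1* the counts were 9 lower of 10 in set 1, 0 of 1 in set 2 and 7 higher of 9 in set 3. Pericyte markers summed to 329 against 105, 74.0 against 103 and 73.2 against 122 CPM, with 4 of 6 called higher in set 1, 0 of 2 in set 2 and 2 of 4 lower in set 3. Epithelial markers summed to 55.6 against 44.3, 199 against 141 and 126 against 131 CPM, with 1 of 3 called higher in set 1 and 0 of 3 and 0 of 4 elsewhere. Smooth muscle markers summed to 399 against 502, 378 against 498 and 329 against 401 CPM, with 1 of 5 called lower in set 1 and 0 of 3 and 0 of 5 elsewhere. The 5 erythroid genes summed to 203 against 260.1, 18.2 against 4.82 and 112 against 535 CPM. Of 2 compared haemoglobin genes, 0 were called in set 1 and 2 lower in set 3, where 97.1% of the *Hbb-bs* UMIs of members sat in 1 cell, and none was compared in set 2.

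Inside the type, members with a *Dpt* UMI were set beside members without one. Sets 2 and 3 are described first (50 and 628 cells, and 342 and 941), since set 1 had 3 such cells, and the cells with *Dpt* were deeper, at medians of 1471.5 against 1216 and 1659.5 against 1244 UMIs. In set 2, 78 of 3099 genes (2.52%) were called higher and 35 (1.13%) lower, and in set 3, 123 of 3917 (3.14%) and 115 (2.94%). Of 2986 genes compared in both sets, 20 (0.670%) were higher in both and 3 (0.100%) lower. The 20 included elastic fibre and adhesive genes (*Eln*, *Fbn1*, *Mfap5*, *Fn1*, *Postn*, *Thbs3* and *Spon2*), the proteoglycan *Epyc*, the surface proteins *Cd34* and *Cd55*, and the secreted proteases *Htra1* and *Htra3*. These groups were formed after the values were seen, and calls per list were not counted for this division. Tenascin C (*Tnc*), an adhesion-modulating matrix protein, was lower in both sets, with ratios of -1.38 and -2.18.

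Elastin (*Eln*) was 1 of the 20. It stood at 602 against 118 CPM in members with and without *Dpt* in set 2 and at 569 against 158 in set 3, ratios of 2.35 (1.85 to 2.84) and 1.84 (1.59 to 2.10). *Postn* stood at 2080.1 against 472 and 377 against 132 CPM, ratios of 2.14 (1.88 to 2.39) and 1.51 (1.22 to 1.81). *Cd34* followed, at 352 against 74.6 and 565 against 194 CPM and ratios of 2.24 (1.58 to 2.87) and 1.54 (1.30 to 1.78). Of the 12 genes called higher than comparison cells in every set, 6 (*Postn*, *Mfap5*, *Thbs3*, *Spon2*, *Epyc* and *Cd55*) were among the 20, and the other 6 (*Dcn*, *Igf2*, *Ugdh*, *Nrk*, *Lgi2* and *Fabp7*) were not. The Dpt-bearing cells are part of the same members and *Dpt* is a gene of the rule, so members without it must hold another of the 5 genes, both comparisons share cells, and the number is a description only. In set 1, where 3 cells held *Dpt* and 59 did not, 158 of 3550 genes (4.45%) were called higher and 64 (1.80%) lower. There 18 of the 20 genes could be compared, *Thbs3* was called higher too, and *Mfap5* was called lower, at 149.95 against 328 CPM, a ratio of -1.13 (-2.27 to -0.19). *Eln* (0.52) and *Cd34* (-1.14) were not called in set 1. In sets 2 and 3 *Mfap5* stood at 1444 against 419.7 and 1237 against 533 CPM and *Cd55* at 125 against 16.7 and 147 against 34. The other 8 of the 20 were *Rrad*, a small GTPase, *Mmp23*, a metalloprotease, *Cpz*, a carboxypeptidase that binds Wnt ligands, *Lbp*, which binds bacterial lipopolysaccharide, and *Plac8*, *Srpx*, *Creb5* and *Fam102b*. The genes lower in both sets included *Tnc* and *Rraga*. Without marker-bearing cells, 18 of the 20 and 1 of the 3 (*Rraga*) were still called in both sets.

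Members with a *Lum* UMI (342 of 678 and 920 of 1283) were set beside those without in the same way, with 63 genes higher (2.03%) and 70 lower (2.26%) in set 2 and 76 (1.94%) and 128 (3.27%) in set 3. In set 1 (27 and 35 cells) 261 of 3550 genes were called higher (7.35%) and 291 lower (8.20%). Members without *Lum* must hold another of the 5 genes, so the division is partly one of *Lum* against *Ptx3*, *Tnfaip6*, *Col5a1* or *Dpt*. In both sets 2 and 3, 13 (0.435%) were higher and 20 (0.670%) lower. The 13 were *Plac8*, *Epyc*, *Thbs3*, *Htra3*, *Mmp23*, *Spon2*, *Cd34*, *Mfap5*, *Fn1*, *Thbd*, *Cachd1*, *Dut* and *Klf3*, and both divisions draw on the same cells, since most cells with *Dpt* also held *Lum*. Of the 13, 12 could be compared in set 1, where 6 were called higher too and 1 (*Thbd*) lower. Of the 20, 16 could be compared there and 14 were called lower too. *Thbd* thus went both ways, at 79.4 against 18 and 124 against 47.5 CPM in cells with and without *Lum* in sets 2 and 3 but 9.97 against 33.6 in set 1, a ratio of -1.75 (-3.52 to -0.30). *Epyc*, the chromosome 10 neighbour, stood at 65.8 against 0, 66.5 against 18 and 58.1 against 11.9 CPM in sets 1, 2 and 3. The 20 lower genes held the glial genes *Fabp7*, *Mal* and *Gpm6b* and the pericyte gene *Rgs5*, of which *Gpm6b* stood at 38.8 against 225 and 69.6 against 299 CPM in sets 2 and 3. *Col13a1*, the transmembrane collagen that was lower in members of sets 2 and 3, was lower again in their Lum-bearing cells, at 20.3 against 62.98 and 22.2 against 73.3 CPM and ratios of -1.63 (-2.79 to -0.58) and -1.72 (-2.46 to -0.99). Without marker-bearing cells, 8 of the 13 and 5 of the 20 (*Gm13889*, *Gpm6b*, *Col13a1*, *Isg15* and *Rbm12*) were still called in both sets.

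**Figure D5:**
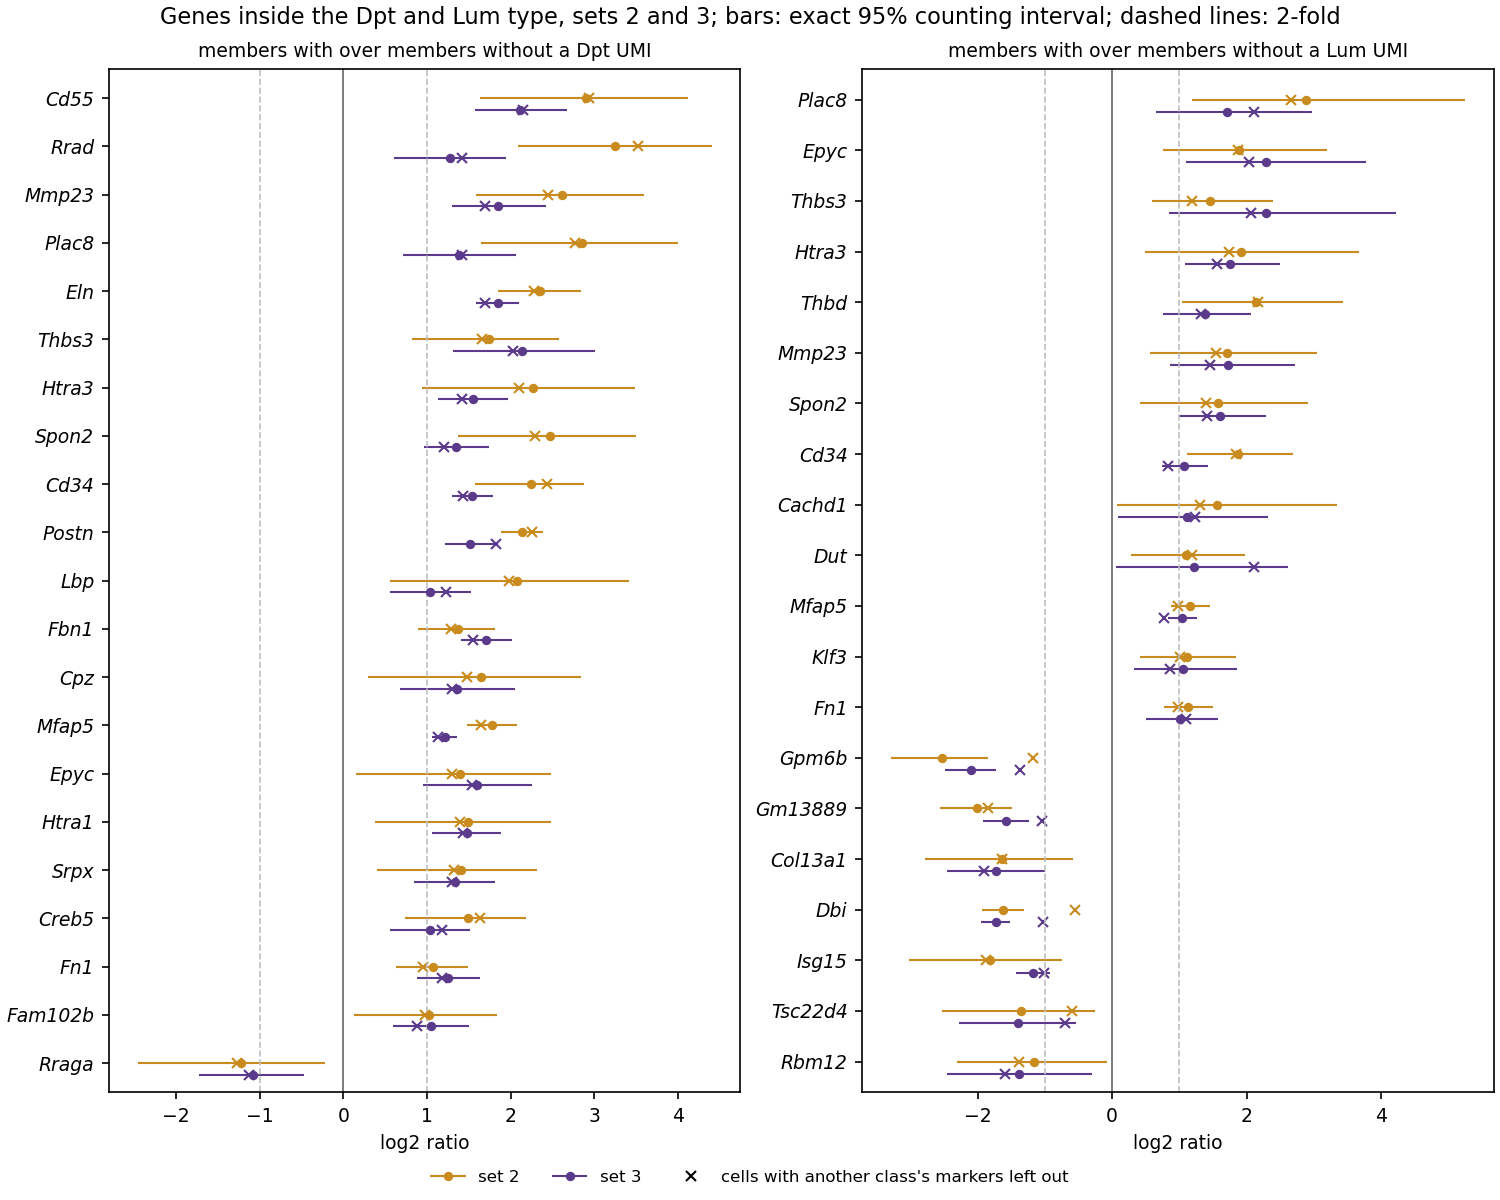
Log2 ratio of CPM within the *Dpt* and *Lum* type, members with over members without a *Dpt* UMI (left) and a *Lum* UMI (right), for the genes called in both set 2 and set 3 that could also be compared in both without cells that held another class's markers; circles and bars are the ratios and exact 95% counting intervals, and crosses the ratio with those cells left out. *Cd55*, *Eln*, *Postn* and *Mfap5* lie right of the 2-fold line beside *Dpt*, and *Gpm6b* and *Col13a1* lie left of it beside *Lum*, with *Col13a1* at -1.63 in set 2.

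Members were last divided by the hyaluronan-linked genes. Those with a *Ptx3* or *Tnfaip6* UMI numbered 54 of 62, 386 of 678 and 911 of 1283. Against the rest, 45 of 3099 genes (1.45%) were higher and 46 (1.48%) lower in set 2, and 74 of 3917 (1.89%) and 63 (1.61%) in set 3. In set 1, 223 of 3550 (6.28%) were higher and 373 (10.5%) lower, against 8 cells whose median depth was 8003.5 UMIs, below the 16462.5 of the others. In sets 2 and 3 together, 5 of 2986 genes (0.167%) were higher in both and 1 (0.0335%) lower. These were *Ifi203*, an interferon-inducible gene, the uncharacterised *Gm13889*, the creatine enzyme *Gatm*, *Fabp7* and *Rgs5*, and, lower, *Pid1*. *Ifi203* stood at 77.3 against 19.8 and 225 against 102 CPM. Only *Ifi203* and *Gm13889* were still called in both sets without marker-bearing cells. Members without *Ptx3* or *Tnfaip6* must hold *Dpt*, *Lum* or *Col5a1*, so the rule makes this division partly the reverse of that by *Lum*, and 4 of the 5 higher genes (*Gm13889*, *Gatm*, *Fabp7* and *Rgs5*) were among the 20 lower beside *Lum*. In set 1, *Gm13889* was called higher too, *Fabp7* (-1.36 (-1.59 to -1.13)) and *Rgs5* (-4.95 (-6.56 to -3.57)) were called lower, opposite to sets 2 and 3, *Pid1* was not called, and *Ifi203* and *Gatm* had too few UMIs to compare.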

How the data were processed

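Per the labels and the study's methods, 10x Genomics 3′ libraries of dissociated tissue were counted with Cell Ranger 3.1.0 against mm10 with added transgene sequences, and the authors removed multiplets, empty droplets and cells with much mitochondrial RNA. No doublet caller was run here. The deposited table, although named as counts, held natural log values that the authors made with Seurat: a gene's share of the cell's UMIs was multiplied by 10000, 1 was added and the natural log taken. UMIs were recovered from them. Of 11120281 values above 0, 100.0% lay within 0.05 of a whole number, the largest distance being 9.4e-07. Of 9784 gene rows, 9781 were used (2 share a name and 1 is filled in part), and 9273 (94.8%) had a RefSeq symbol, from which the GRCm38.p6 positions come. The other rows of the genome were not analysed here, and some named genes are not reported here.

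Cells were chosen by the rule stated in the opening, and UMIs were summed over the cells of a type within a barcode set. CPM carry exact Poisson 95% intervals, and log2 ratios an exact interval from the binomial split of both sums. Sums under 3 UMIs were set to 3 in ratios, and the 20 genes of the rule were left out of the counts of calls. Where a sum of 1 to 3 is printed, the ratio is of the sums themselves. No test was run, since each group had 1 library and no label ties a barcode set to a sample. The scripts were tested on simulated data, where 92%, 87.5% and 89.5% of 200 genes changed by known folds were called rightly in sets 1, 2 and 3. The simulated counts had no spread between cells, so they do not cover genes whose UMIs sat in few cells.

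The members, the 26 gene lists and the comparisons were chosen with earlier results of these data known. Genes were named by rule: those of the rule for members, up to 8 of each list by mean CPM, list members 2-fold apart in one direction in all sets, the 15 highest and 15 lowest by the ratio nearest 0, and *EGFP*. Other list genes named because they were called in 1 or 2 sets, *Npnt*, *Srgn*, and the genes of the divisions inside the type were chosen after their values were seen. Alternatives changed the depth (thinning to 900 UMIs), the genes of the rule, the cells kept, the comparison cells, the weight of cells and the minimum of UMIs. Python 3.11.15, numpy 2.4.6, scipy 1.17.1 and matplotlib 3.10.9 were used.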

Additional observations from a re-analysis of the deposited data

Results flagged for a closer look

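Some genes were called in opposite directions in different barcode sets, as log2 ratios of members over comparison cells. The differences between sets were not tested, and each set is 1 library. The first 5 concern fibroblast or secreted genes. The Wnt ligand *Wnt2* had 1.56 in set 1 and -1.80 in set 3. *Ecm1*, a secreted glycoprotein, had 1.13 in set 1 and -1.12 in set 3. *Lgr5*, the R-spondin receptor, had 1.04 in set 1 and -1.53 in set 2. *Akr1b8*, an aldo-keto reductase, had 1.41 in set 1 and -1.43 in set 2. *Anxa3* had -1.11 in set 1 and 1.05 in set 2, and 3.28 in set 1 without cells that held another class's markers.

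The others are markers of other cell classes. Macrophage and leukocyte genes were lower in members of set 1 and higher in those of set 3: *C1qa* had -4.23 and 4.09, *C1qb* -4.44 and 2.74, *C1qc* -3.69 and 3.53, *Cd52* -2.32 and 1.73, *Fcer1g* -3.57 and 1.42 and *Tyrobp* -3.45 and 1.40, with sums under 3 UMIs set to 3. All of these were too rare to compare once cells with another class's markers were left out, of which 13 members of set 3 held leukocyte markers. The pericyte gene *Rgs5* had 1.37 in set 1 and -1.64 in set 3 and could not be compared without those cells either.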

How the results depend on the processing

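No paired analysis was possible because the barcode sets carry no replicate number and every set is 1 library. Depth limits what can be compared: a member held a median of 1239 or 1321 UMIs in sets 2 and 3, and set 1 had 62 members.

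The share of members was 8.09%, 12.7% and 15.2%. Applying the rule after thinning to 900 UMIs gave 15.28% in set 1 and 14.33% in set 3. Asking for at least 2 of the 5 genes gave 5.944% in set 2 and 10.16% in set 3. Leaving 1 gene out of the rule gave 15.12% (*Dpt*), 14.34% (*Ptx3*) and 11.78% (*Tnfaip6*) in set 2, and 17.02% (*Dpt*), 17.62% (*Ptx3*), 13.42% (*Lum*), 12.64% (*Tnfaip6*) and 16.59% (*Col5a1*) in set 3. Without the 5% of cells with the most UMIs, set 3 had 15.96%. Leaving out cells with another class's markers gave 11.38% in set 2 and 14.14% in set 3, and without the share of UMIs asked for 4.178%, 11.23% and 14.06%. The share of members with at least 2 of the 5 genes (82.3%, 46.9% and 67.0%) became 51.72%, 36.82% and 57.51% with the thinned rule.

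Counts of called genes fell with fewer UMIs or fewer genes compared. With cells thinned, 55 genes were higher and 22 lower in set 1, 58 and 35 in set 2, and 103 and 109 in set 3. With the rule applied after thinning, 73 and 59 were called in set 1, 43 lower in set 2, and 96 and 89 in set 3. At a minimum of 50 UMIs, 30 and 19 were called in set 2 and 92 and 83 in set 3. Without cells holding at least 2 markers of another class at any level, 153 and 394 were called in set 1.

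Of 686 recomputed ratios of 33 genes, 556 stayed within the counting interval of the reported ratio, 113 moved further and 17 called ratios reversed, all of *Emcn*, *Flt1* and *Fabp7*. Of the 113, 1 changed its sign, that of *Olfml2b* in set 1, which was not called, from 0.99 to -0.067 without cells with a mitosis gene. Without cells with a UMI of a defining gene of another type, *Emcn* had 2.02, 0.62 and 0.90 in sets 1, 2 and 3 and *Flt1* 3.41, 0.50 and 0.34. Without cells with another class's markers, *Emcn* had 1.29 in set 1 and 1.13 in set 3, and *Flt1* 3.09 in set 1 and 0.51 in set 2. At any level of those markers, *Emcn* had 1.14 in set 3 and *Flt1* 0.60 in set 2. The thinned rule gave 0.43 for *Emcn* in set 3 and 0.67 for *Flt1* in set 2, the mean of CPM per cell 0.28 for *Emcn* in set 2, and leaving out cells with a mitosis gene 0.65 for *Flt1* in set 1. With at least 2 of the 5 genes, *Fabp7* had -0.058 in set 3. The cause was not tested.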
